A study of Mus musculus with 24 samples.

Results

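The Hox genes are the 39 homeobox genes of the HoxA, HoxB, HoxC and HoxD clusters. Every gene whose current mouse symbol is Hoxa, Hoxb, Hoxc or Hoxd followed by a number up to 13 was taken, which gave 39 of the 22282 genes in the tables (11 in HoxA, 10 in HoxB, 9 in HoxC and 9 in HoxD). Hox genes encode transcription factors that tell a cell where it lies along the body axis. Within each cluster the genes stand in the order in which they are used along that axis, with the low numbers at the 3′ end used towards the head and the high numbers at the 5′ end used towards the tail and the ends of the limbs. Cells that are taken out of the embryo or the adult often keep the Hox genes of the place they came from, and vascular and mesenchymal cells of different organs carry different sets.

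The study asked whether amniotic cells could be turned into endothelial cells (ECs) by ETS transcription factors, and its RNA-seq covered 24 libraries in 8 groups of 3, all from C57BL/6J mice. MACs were amniotic fluid cells of E11.5 to E13.5 embryos grown without added genes, and Akt-MACs were MACs given a lentivirus for constitutively active, myristoylated Akt. RACVECs were MACs given lentiviral Etv2, Erg and Fli1, and Akt-RACVECs carried myristoylated Akt as well. Sox17-RACVECs were RACVECs that also received lentiviral Sox17 and were selected with puromycin. Conversion used EC medium with VEGF-A and an inhibitor of TGF-β signalling, whereas isolated amniotic cells were first grown in AmnioMAX. The medium of the sequenced MACs and Akt-MACs is not stated. The factors, medium and inhibitor therefore cannot be told apart between converted and amniotic cells. Akt-LECs and Akt-liver ECs were adult lung and liver ECs that were isolated on CD31 beads, cultured and transduced with the same Akt construct, and liver sinusoidal ECs (LSECs) were sorted directly from the liver without culture and without Akt. Culture and Akt therefore cannot be told apart in the comparison of Akt-liver ECs with LSECs. The amniotic libraries were mixed cultures and not clones, and in bulk samples fewer cells of a type and less RNA per cell cannot be told apart.

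Some libraries stood apart from their groups. The library labelled Sox17-RACVEC 2 had no Etv2 (0 FPKM), whereas the other 8 libraries given Etv2 held 127 to 860 FPKM. The same library had 387 FPKM of Erg, against 4.49 and 0 in the other Sox17-RACVEC libraries. Akt1, the endogenous gene and construct together, was at 559 to 1281 FPKM in the Akt groups, 451 to 694 FPKM in MACs, RACVECs and LSECs, and 884 to 1323 FPKM in Sox17-RACVECs, while Sox17 was at 5.09, 40.1 and 200.1 FPKM in Sox17-RACVECs and 0 in RACVECs. The Akt-MAC libraries carried macrophage and leukocyte markers (Ptprc, Adgre1, Csf1r, Lyz2 and Cd52, 5 of 6 listed markers measured) at summed levels of 809 in Akt-MAC 1, 8654 in Akt-MAC 2 and 28704 FPKM in Akt-MAC 3, against 0.79 to 14.7 FPKM in MACs, where Ptprc, Adgre1 and Cd52 were at 0. Mesenchymal markers (7 of 7 measured) summed to 3313 FPKM in Akt-LEC 1 and 2053 FPKM in Akt-liver EC 1, against at most 402 FPKM in the other libraries of those groups. The same libraries held macrophage and leukocyte markers at 1369 and 904 FPKM, against at most 18.6 FPKM in the others. Epithelial markers (5 of 5 measured) summed to 175 and 1546.5 FPKM in them, against at most 29.8 FPKM in the others. Endothelial markers (7 of 7 measured) summed to 8.11 to 51.6 FPKM in MACs and Akt-MACs, with Erg at 0, to 1270 to 2543 FPKM in RACVECs and to at least 3619 FPKM in every other library. The germ layer list (4 of 4 measured) summed to 0.88 to 670.0 FPKM in MACs and 0.44 to 848 FPKM in Akt-MACs, all of it the neural crest gene Sox10 since T, Tcf15 and Mesp1 were at 0, and to at most 7.13 FPKM elsewhere. LSECs held the sinusoidal lectin Clec4g at 21133 to 31959 FPKM, while Akt-liver ECs held it at 6.53, 0 and 1.60 FPKM. LSECs also held erythroid (3 of 4 measured, 10275 to 10897 FPKM), macrophage (5056 to 7597 FPKM) and hepatocyte (6 of 6 measured, 2012 to 11518 FPKM) markers, none of them at 0. The values are FPKM, so the number of reads behind each is unknown, and none of 19 housekeeping genes was listed at 0 in any library.

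All 39 genes carry a homeobox, the 180-base stretch that encodes the DNA-binding homeodomain, and each homeobox was placed once on the mm9 genome (NCBIM37 sequence with GENCODE M1 transcripts). The last 60 bases encode the recognition helix that contacts DNA, and they are shown for 7 genes that carry the results, to show how similar the sequences of genes with very different levels are. Capitals mark a base other than the commonest among the 39 genes at that position. The genes lie at chr6:52152631-52152690 (Hoxa5, minus strand), chr6:52182553-52182612 (Hoxa10, minus), chr6:52193401-52193460 (Hoxa11, minus), chr11:96145608-96145667 (Hoxb8, plus), chr15:102801399-102801458 (Hoxc10, plus), chr2:74544702-74544761 (Hoxd8, plus) and chr2:74508107-74508166 (Hoxd13, plus).
Hoxa5: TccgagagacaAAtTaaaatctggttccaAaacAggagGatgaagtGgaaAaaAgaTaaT
Hoxb8: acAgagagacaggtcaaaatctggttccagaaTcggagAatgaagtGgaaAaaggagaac
Hoxd8: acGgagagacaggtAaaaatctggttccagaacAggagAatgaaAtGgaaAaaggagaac
Hoxa10: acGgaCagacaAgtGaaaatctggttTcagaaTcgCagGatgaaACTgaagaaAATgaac
Hoxc10: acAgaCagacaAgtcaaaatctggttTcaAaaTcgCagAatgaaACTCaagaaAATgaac
Hoxa11: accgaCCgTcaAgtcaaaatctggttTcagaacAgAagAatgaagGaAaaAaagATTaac
Hoxd13: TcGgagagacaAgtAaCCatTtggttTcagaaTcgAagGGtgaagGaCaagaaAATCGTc
Over the 39 genes 5 to 21 of these 60 bases differed from the commonest base (median 12). Hoxb8 differed at 5 positions and Hoxd8 at 7, while Hoxd13, which acts in the digits and the genital tubercle, differed at 20.

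Across whole homeoboxes the 741 pairs of genes were 46.1% to 93.9% identical (median 61.1%), and the 42 pairs with the same number in different clusters had a median of 80.6%. Reads were 51 bases long. Only 3 pairs of genes shared an unbroken run of 51 bases or more in their transcripts, namely Hoxb7 and Hoxb8 (1069 bases), Hoxd3 and Hoxd4 (831 bases) and Hoxa6 and Hoxb4 (52 bases). The first pairs share these bases because their annotated transcripts overlap, so the split of reads between Hoxb7 and Hoxb8 and between Hoxd3 and Hoxd4 is uncertain. The annotated span of Hoxa3 overlaps those of Hoxa2, Hoxa4, Hoxa5 and Hoxa6, but none of these pairs shared such a run in their transcripts. The library kit does not mark strand, so reads from Hoxa11 and its antisense partner Hoxa11os cannot be told apart.

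The promoters of 3 genes are shown as examples of different patterns described below. Hoxa7 differed in 3 comparisons. Hoxa11 was at 0 in every lung and liver EC library but was called in no comparison. Hoxd8 was high in cultured ECs and at 0 in LSECs. The promoters run from 250 bases before to 50 bases after the RefSeq start (GRCm38.p6), at chr6:52218524-52218823 (minus strand), chr6:52245761-52246060 (minus) and chr2:74704365-74704664 (plus), with CpG pairs in capitals.
Hoxa7: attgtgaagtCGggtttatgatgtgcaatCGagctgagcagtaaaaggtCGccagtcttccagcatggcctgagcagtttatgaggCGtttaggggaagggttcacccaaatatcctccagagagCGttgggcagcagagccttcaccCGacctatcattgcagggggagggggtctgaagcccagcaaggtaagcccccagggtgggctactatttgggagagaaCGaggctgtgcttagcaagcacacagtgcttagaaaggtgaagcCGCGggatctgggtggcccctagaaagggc
Hoxa11: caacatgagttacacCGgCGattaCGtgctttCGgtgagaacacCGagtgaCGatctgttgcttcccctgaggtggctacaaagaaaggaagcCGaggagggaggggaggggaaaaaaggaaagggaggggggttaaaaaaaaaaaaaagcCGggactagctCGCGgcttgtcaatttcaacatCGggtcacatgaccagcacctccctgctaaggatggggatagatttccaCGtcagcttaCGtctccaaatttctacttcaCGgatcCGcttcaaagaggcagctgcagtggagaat
Hoxd8: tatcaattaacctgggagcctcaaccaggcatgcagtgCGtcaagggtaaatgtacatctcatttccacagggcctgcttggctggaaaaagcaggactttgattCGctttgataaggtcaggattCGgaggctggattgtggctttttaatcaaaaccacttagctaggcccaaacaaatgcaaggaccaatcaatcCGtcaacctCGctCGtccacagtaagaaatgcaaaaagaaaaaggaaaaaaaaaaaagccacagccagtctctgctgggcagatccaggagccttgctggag
The promoters held 9 (Hoxa7), 15 (Hoxa11) and 6 (Hoxd8) CpG pairs. The RefSeq table held 24 promoters for 22 of the 39 genes, with a median of 14.5 CpG pairs against 7 over all 32851 promoters. On either strand, the Ets letters CCGGAA stood in 2 of the 24 Hox promoters (Hoxa10 and Hoxd12, 8.3%) and in 14.9% of all promoters. The Hox-Pbx letters TGATTNAT stood in 2 (Hoxa2 and Hoxd11, 8.3%) and in 3.2% of all, the Sox letters CCATTGT in 0 and in 3.7%, and the TATA letters TATAAA in 4 (Hoxa10, Hoxb8, Hoxd13 and Hoxd4, 16.7%) and in 13.6%. The motifs do not overlap each other in letters, and none of the 4 stood in the windows of Hoxa7, Hoxa11 and Hoxd8.

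The clusters also hold microRNAs. The miR-196a precursor between Hoxb9 and Hoxb13 gives a mature RNA (chr11:96265187-96265208, plus strand, GRCm38.p6) that is known to pair almost completely with the Hoxb8 transcript, shown here with its seed, bases 2 to 8, in capitals. The Hoxb8 site lies in the 3′ UTR at chr11:96146202-96146223 (plus strand, mm9), where capitals mark bases that pair with the microRNA.
miR-196a-5p: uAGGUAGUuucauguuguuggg
Hoxb8 site: CCCAACAACATGAAACTgCCTA
In this site 21 of 22 bases paired and the other was a G:U wobble. The best sites in Hox transcripts elsewhere paired at 15 bases (Hoxa4 and Hoxd8), and the Hoxb8 site also lies in the annotated 5′ UTR of the overlapping Hoxb7 transcript. The 24 tables list the Mir196a-1 hairpin at 592.6 FPKM in Akt-RACVEC 3, 168 in Akt-RACVEC 1 and 0 in Akt-RACVEC 2. It was at 121, 274 and 288 FPKM in Sox17-RACVECs and at 140 FPKM in RACVEC 2. Akt-MAC 1 and 2 held 144 and 38.1 FPKM, Akt-LEC 3 held 69.7 FPKM and MAC 3 held 32.7 FPKM. The hairpin was at 0 in the remaining libraries, among them all LSEC and Akt-liver EC libraries. The other 5 miRNA hairpins of the clusters (Mir10a, Mir10b, Mir196a-2, Mir196b and Mir615) were at 0 in all 24 libraries. A hairpin is short and these libraries were made from polyadenylated RNA, so the values do not measure the mature microRNAs.

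The groups differed in how many Hox genes they expressed, in which clusters, and how far towards the 5′ end. Genes at 1 FPKM or more in all 3 libraries of a group numbered 12 in MACs, 16 in Akt-MACs, 12 in RACVECs, 23 in Akt-RACVECs, 21 in Sox17-RACVECs, 20 in Akt-LECs, 20 in Akt-liver ECs and 12 in LSECs. Hoxb1, the hindbrain gene, was at 0 in all 24 libraries and Hoxd1 was at 2.36 FPKM or less, so 37 of the 39 genes entered the tests. The summed level of all 39 genes was lowest in the LSECs (427 to 451 FPKM) and highest in the Akt-RACVECs (1650 to 2746 FPKM) among groups with similar replicates. MAC libraries ranged from 208 to 1752 FPKM and Akt-MAC libraries from 141 to 1197 FPKM.

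**Figure D1:**
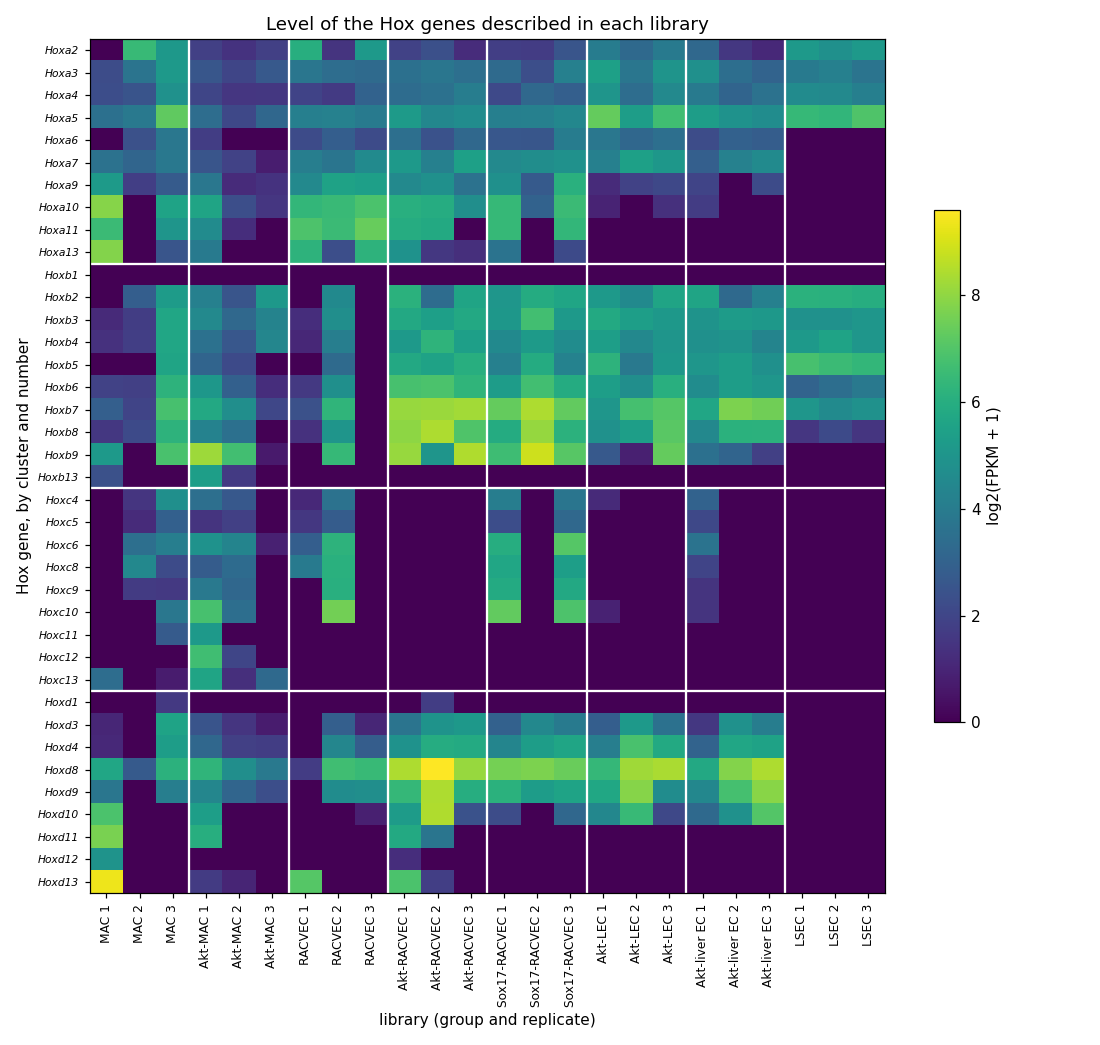
Level of the Hox genes described here (rows, by cluster and number) in each of the 24 libraries (columns, by group), as log2(FPKM + 1) on the colour scale. The 3 LSEC libraries show values above 0 only up to Hoxa5 in HoxA and up to Hoxb8 in HoxB, and Akt-RACVEC libraries show HoxC blank.

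**Figure D2:**
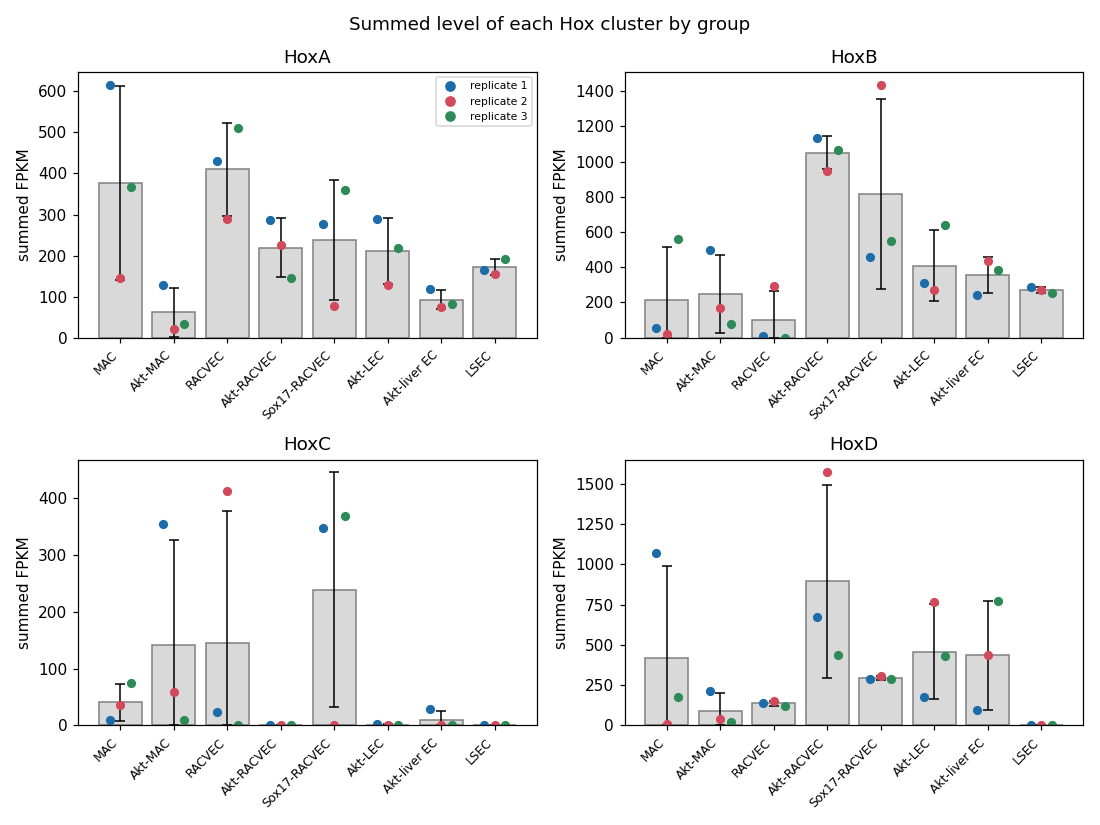
Summed FPKM per cluster in the 8 groups, with bars for the mean, error bars for the SD over 3 libraries (cut at 0) and dots for single libraries. HoxC was at 0 in Akt-RACVECs and LSECs, HoxD was at 0 in LSECs, and HoxB reached 948 to 1133 FPKM in Akt-RACVECs.

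LSECs had a short and even Hox set. Hoxa2 to Hoxa5 and Hoxb2 to Hoxb8 were present in each of the 3 LSEC libraries, and all genes 5′ of Hoxa5 and Hoxb8 in these clusters and all HoxC and HoxD genes were listed at 0. Hoxa5, a regulator of lung and gut development, was at 85.6, 79.9 and 123 FPKM. Hoxb5, a gene active in vascular and enteric precursors, was at 112, 92.4 and 81.8 FPKM. Hoxb2, a hindbrain gene, was at 68.9, 67.9 and 62.6 FPKM. These were the 3 highest of the group, and each varied little between libraries. Hoxb8, the most 5′ gene present, was low at 1.83, 3.42 and 1.78 FPKM. Over the 39 genes the profiles of the 3 LSEC libraries correlated at r = 0.995 to 0.997 on the log2(FPKM + 1) scale, a description of genes measured in the same libraries.

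Liver ECs grown in culture with Akt carried a longer set than LSECs. Akt-liver ECs exceeded LSECs in 8 of 37 Hox genes that limma called (21.6%, against 14.1% of all 14964 genes tested) and fell below them in 0 (against 12.9%). A call needed an adjusted p below 0.05 and a log2(FPKM + 1) difference past 1 or -1. The 8 genes were Hoxa6, Hoxa7, Hoxb8, Hoxd3, Hoxd4, Hoxd8, Hoxd9 and Hoxd10, and 7 of them, all but Hoxb8, were listed at 0 in every LSEC library, so no fold is given for them. Hoxd8 was at 54.7, 226 and 341 FPKM in Akt-liver ECs (adjusted p = 5.31e-05). Its neighbour Hoxd9 was at 21.0, 108 and 240.2 FPKM (adjusted p = 0.000724), and Hoxd10, a gene of the lower trunk and limbs, at 8.62, 28.0 and 129 FPKM (adjusted p = 0.0395). All 3 were lowest in Akt-liver EC 1, the library with the high mesenchymal, macrophage and epithelial markers. The part of these markers was not tested. Hoxd4 was at 7.22, 49.8 and 45.4 FPKM (adjusted p = 0.00435), and Hoxd3, which has been linked to the angiogenic state of ECs, at 1.95, 27.8 and 15.7 FPKM (adjusted p = 0.0229). In HoxA the change lay just 5′ of the genes that LSECs express. Hoxa6 was at 3.69, 6.81 and 6.08 FPKM (adjusted p = 0.00644) and Hoxa7 at 6.60, 17.7 and 23.4 FPKM (adjusted p = 6.12e-06). Hoxb8 was at 21.2, 69.2 and 71.8 FPKM, above all 3 LSEC values, with a log2 difference of 3.89 ± 1.29 (SE, n = 3 and 3, adjusted p = 0.0257).

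Hoxa2 and Hoxa5 were at lower values in Akt-liver ECs than in LSECs in the same comparison, without passing the test. Hoxa2, which patterns the second branchial arch, was at 8.60, 1.93 and 1.13 FPKM in Akt-liver ECs and 34.5, 27.3 and 34.6 FPKM in LSECs, a log2 difference of -3.07 ± 1.21 (adjusted p = 0.0559). Hoxa5 was at 39.2, 29.0 and 24.7 FPKM against 79.9 to 123 FPKM, a log2 difference of -1.60 ± 0.68 (adjusted p = 0.0773). These were the only genes lower at an unadjusted p below 0.05 (2 of 37, 5.41%, against 14.8% of all genes), the 8 called genes were the ones higher (21.6%, against 16.4%), and the study's own criterion, an unadjusted p below 0.05 on the FPKM with a log2 ratio past 1 or -1, called 2 higher (Hoxa6 and Hoxb6) and 3 lower (Hoxa2, Hoxa5 and Hoxb5). Libraries of the groups did not overlap for 6 genes that were lower (16.2%, against 24.9%) and 11 that were higher (29.7%, against 27.7%). When only these 6 libraries were fitted, 11 genes were called higher and 4 lower (Hoxa2, Hoxa5, Hoxb2 and Hoxb5). The median log2 difference of the 37 genes was 0.48, against 0.08 over all genes tested. Macrophage, erythroid and hepatocyte markers moved with this comparison (5, 2 and 6 genes called lower in Akt-liver ECs), as did the endothelial Kdr and Tek and the mesenchymal Lum (called lower), and their part in the Hox values was not tested. Without either of Akt-liver EC 2 or 3, or of LSEC 1 or 3, 5 genes were called higher (Hoxa6, Hoxa7, Hoxd4, Hoxd8 and Hoxd9). Leaving out Akt-liver EC 1 and Akt-LEC 1 together left 8 higher and made Hoxa2 lower.

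The cultured lung ECs held nearly the same genes as the cultured liver ECs. Both groups had Hoxa2 to Hoxa7, Hoxb2 to Hoxb8 and Hoxd3, Hoxd4 and Hoxd8 to Hoxd10 at 1 FPKM or more in each library, with Hoxa9 as well in Akt-LECs and Hoxb9 (10.7, 7.47 and 2.55 FPKM) in Akt-liver ECs. In Akt-LECs Hoxd8 led at 82.5, 301 and 336 FPKM. Hoxd9 was at 52.1, 229 and 24.5 FPKM. Hoxa5 was at 159, 39.4 and 101 FPKM. As in liver, Hoxd8 was lowest in replicate 1, but Hoxa5 was highest there. The most 5′ genes seen in all Akt-LECs were Hoxa9, Hoxb8 (28.2, 40.6 and 139 FPKM) and Hoxd10 (20.6, 88.5 and 3.25 FPKM). Hoxa10 was at most 2.25 FPKM in both groups, and Hoxa11 and Hoxa13 were at 0 in all 6 libraries. Between Akt-LECs and Akt-liver ECs limma called 0 of 37 Hox genes in either direction (against 0% of all genes higher and 0.0134% lower). Without adjustment, at p below 0.05, there was 1 gene higher in Akt-LECs, Hoxa5 (2.7%, against 1.12% of all genes), by 1.47 ± 0.68 on the log2 scale (adjusted p = 1), and 0 lower (against 1.67%). Libraries did not overlap for Hoxa2, Hoxa5 and Hoxa6, which were higher in Akt-LECs (8.11%, against 2.75%), and for 0 that were lower (against 4.41%). The study's criterion called 1, Hoxa2, which was at 15.5, 8.61 and 14.5 FPKM in Akt-LECs. Hoxb7, among the leading genes of the liver group, was at 49.8, 206 and 180.5 FPKM in Akt-liver ECs and at 32.4, 107 and 132 FPKM in Akt-LECs. Over all 39 genes the 9 pairs of an Akt-LEC and an Akt-liver EC library correlated at r = 0.773 to 0.977, while Akt-liver EC and LSEC libraries correlated at 0.423 to 0.702.

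By the correlation of their Hox profiles, the MAC libraries differed from each other more than those of any other group. MAC 1 had its highest levels at the 5′ ends of HoxA and HoxD. Hoxd13 was at 654, 0 and 0 FPKM in the 3 MAC libraries. Hoxa13, its partner in the most distal limb, was at 227, 0 and 4.79 FPKM. Hoxa10, which acts in the limb, uterus and blood progenitors, was at 229, 0 and 46.4 FPKM. Hoxd11 (203.6 FPKM) and Hoxd10 (119 FPKM) were also high in MAC 1 and at 0 in the others. MAC 2 had an anterior set instead, led by Hoxa2 at 86.6 FPKM, with Hoxa10 to Hoxa13 at 0, while MAC 3 was led by Hoxa5 at 153 FPKM and held HoxB at a sum of 559.9 FPKM, against 53.2 and 19.98 FPKM in the others. The most 5′ genes seen in all 3 were Hoxa9, Hoxb8 (1.95, 3.42 and 73.8 FPKM) and Hoxd8 (50.7, 5.62 and 71.8 FPKM). The profiles of MAC libraries correlated at r = -0.313 to 0.37. Tbx4, a hindlimb transcription factor, followed the MAC 1 pattern at 164, 0 and 1.05 FPKM, as did Pitx1 at 54.4, 0 and 1.49 FPKM. These 2 genes were singled out from a list of regional factors after their values were seen. En1 and Isl1 of the same list, given below, were highest in MAC 3 instead. The list therefore does not assign MAC 1 to a body region.

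RACVECs had HoxA genes up to the 5′ end and few others in common, and MAC 1 and MAC 3 also had HoxA genes up to Hoxa13. Every RACVEC library had Hoxa2 to Hoxa13 at 1 FPKM or more, and outside HoxA only Hoxd8 reached that level in each (2.28, 99.4 and 88.3 FPKM). The 5′ HoxA genes led. Hoxa11, a gene of the forearm and of the kidney and uterus, was at 121, 93.2 and 163 FPKM. Hoxa10 was at 81.7, 89.6 and 117 FPKM, and Hoxa9, a gene of blood progenitors and ECs, at 22.1, 45.1 and 41.9 FPKM. The 3 libraries were alike in these genes. Hoxa13 was uneven at 72.2, 3.95 and 72.3 FPKM. HoxB and HoxC separated the libraries, since HoxB summed to 10.2, 292 and 0 FPKM and HoxC to 23.8, 412 and 0 FPKM. Hoxc10, a gene of the lumbar region and hindlimb, alone gave 189 FPKM in RACVEC 2 and was at 0 in the others. Hoxd13 was at 135 FPKM in RACVEC 1 and 0 in the others.

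Against MACs, limma called 0 of 37 Hox genes higher and 0 lower in RACVECs (against 1.36% and 1.35% of all genes). Before adjustment 1 was higher at p below 0.05, Hoxa9 (2.7%, against 5.45%), and 0 lower (against 7.15%), and the study's criterion called 0. Hoxa9 was at 36.6, 2.48 and 5.82 FPKM in MACs, a log2 difference of 1.89 ± 0.89 (adjusted p = 0.251). Hoxa11 was the only gene whose libraries did not overlap (2.7%, against 11.4%), since MACs had 92.9, 0 and 30.9 FPKM (0 genes were lower without overlap, against 10.5%), but its log2 difference of 3.10 ± 1.77 did not pass the test (adjusted p = 0.347). The median of the 37 genes was -0.51, against 0 over all genes. No Hox gene was called when any single library of the 6 was left out.

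**Figure D3:**
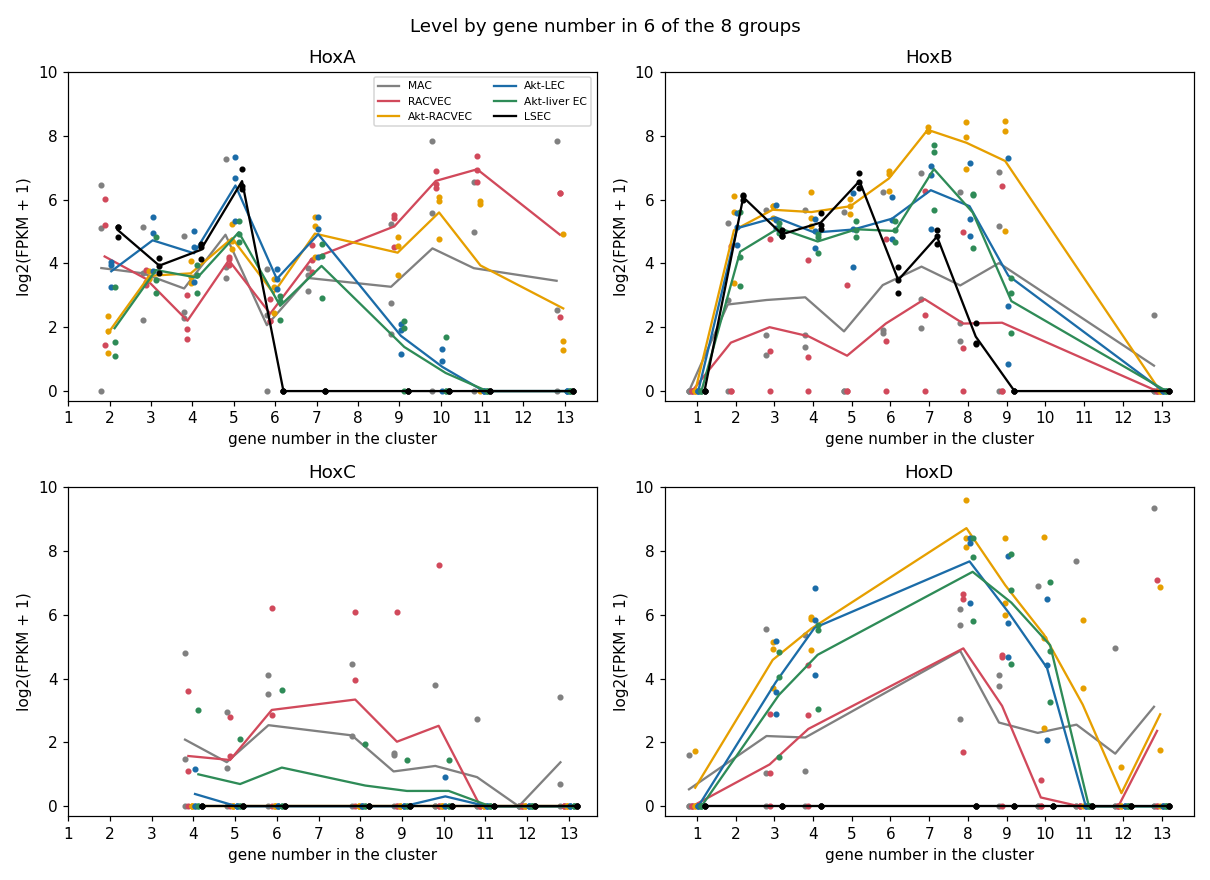
Level of the Hox genes described here along their clusters, from the 3′ end (low numbers) to the 5′ end (high numbers), as log2(FPKM + 1), in 6 groups, with points for libraries and lines for group means. RACVECs show HoxA up to Hoxa13 (3.95 to 72.3 FPKM), whereas LSECs stop at Hoxa5 and Hoxb8.

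With Akt in both arms, the genes called higher in converted cells lay in HoxA, HoxB and HoxD, and the 2 called lower in HoxC. Between Akt-RACVECs and Akt-MACs limma called 10 of 37 genes higher (27%, against 6.15% of all genes) and 2 lower (5.41%, against 13.4%), and the median log2 difference of the 37 genes was 1.89, against -0.09 over all genes. The 10 were Hoxa4, Hoxa6, Hoxa7, Hoxb5, Hoxb6, Hoxb7, Hoxb8, Hoxd4, Hoxd8 and Hoxd9. Hoxb8, a gene of the thoracic region and of myeloid progenitors, was at 248, 342 and 123 FPKM in Akt-RACVECs and 18.1, 10.6 and 0 FPKM in Akt-MACs, a log2 difference of 5.18 ± 1.29 (adjusted p = 0.00859). Hoxb5 was at 54.5, 45.7 and 64.3 FPKM against 7.55, 3.45 and 0 FPKM, a difference of 4.04 ± 1.19 (adjusted p = 0.0206). Hoxb7 was at 280.3, 284 and 306 FPKM against 55.3, 26.0 and 3.12 FPKM, a difference of 3.98 ± 1.30 (adjusted p = 0.0336). In these 3 genes the groups did not overlap, and the Akt-RACVEC libraries were close together for Hoxb5 and Hoxb7 but not for Hoxb8. Hoxd8 was at 339.6, 777 and 279 FPKM against 76.8, 25.8 and 13.7 FPKM, a difference of 3.75 ± 1.10 (adjusted p = 0.0203), and it was the highest Hox gene of the Akt-RACVEC group. Hoxa7 was at 34.9, 17.2 and 42.5 FPKM against 4.78, 2.74 and 0.71 FPKM, a difference of 3.20 ± 0.49 with the smallest adjusted p of the cluster genes (0.00031). The smallest differences among the genes called higher were those of Hoxa6 (10.4, 4.42 and 8.54 FPKM against 2.34, 0 and 0 FPKM, 2.49 ± 0.70) and Hoxa4 (9.54, 11.01 and 15.9 FPKM against 2.99, 1.86 and 1.94 FPKM, 2.00 ± 0.57).

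The 2 genes called lower were the most 5′ genes of HoxC. Hoxc13, known for its role in hair, was at 47.4, 1.45 and 8.78 FPKM in Akt-MACs and listed at 0 in all Akt-RACVECs (adjusted p = 0.00561). Hoxc12 was at 99.6, 3.07 and 0 FPKM against 0 in all (adjusted p = 0.0330), so its groups overlapped at 0. Outside Akt-MACs, Hoxc12 was at 0 in every library and Hoxc13 was at most 9.74 FPKM. Both therefore met the filter on mean FPKM largely through Akt-MACs, the group where they were high. Their calls are given as a description and not as support. Before adjustment 14 genes were higher at p below 0.05 (37.8%, against 8.31%) and 3 lower (8.11%, against 18.1%), and the study's criterion called 9 higher and 0 lower. Libraries did not overlap for 15 genes that were higher (40.5%, against 15.3%) and for 2 that were lower (5.41%, against 22%). In the same comparison 5 of 5 macrophage markers were called lower (summed 5.35 to 145 FPKM in Akt-RACVECs, where Cd52 was at 0). Mesenchymal markers moved with it as well, with 3 of 7 called lower (Acta2, Col1a1 and Dcn) and sums of 1489.7 to 7643 FPKM in Akt-MACs against 0.58 to 232 FPKM in Akt-RACVECs, and so did the neural genes Pax6 and Sox2 (2 of 4 called lower, sums of 144 to 1091 FPKM against 30.7 to 231 FPKM) and Sox10, while 7 of 7 endothelial markers were called higher. The part of these markers in the Hox values was not tested beyond leaving out the libraries named next. When Akt-MAC 2 was left out, 2 genes were called higher (Hoxa7 and Hoxb8), and without Akt-MAC 3, 3 did (Hoxa4, Hoxa7 and Hoxb8). Leaving out both, the libraries with the most macrophage marker RNA, left Hoxa7 as the only gene called higher and 4 called lower (Hoxb13, Hoxc11, Hoxc12 and Hoxc13), with Akt-MAC 1 alone on the amniotic side and assumed to vary like the other groups. Without any of the Akt-RACVEC libraries 5 or 6 genes were called higher and Hoxc13 lower, and without Akt-MAC 1, 10 were called higher and 0 lower.

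The highest Hox genes of Akt-MACs lay toward the 5′ ends of HoxB and HoxC, mostly in Akt-MAC 1. Hoxb9 led the group at 292, 103 and 0.62 FPKM, followed by Hoxc10 at 112, 10.2 and 0 FPKM. Hoxb13, a tail and prostate gene, was at 41.2, 2.13 and 0 FPKM and Hoxc11 at 34.6, 0 and 0 FPKM. Akt-MAC 1 was the only library with all 9 HoxC genes at 1 FPKM or more. Akt-MAC 3, the library with the highest macrophage markers, had the fewest Hox genes of its group at that level (16, against 36 and 30). The most 5′ genes seen in all 3 libraries were Hoxa10 (47.2, 3.99 and 1.89 FPKM), Hoxb7, Hoxc13 and Hoxd9 (20.1, 7.85 and 3.95 FPKM).

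Relative to Akt-LECs, 5 of 37 genes were called lower in Akt-MACs (against 5.76% of all genes), the neighbours Hoxa3 to Hoxa7, and 2 higher (5.41%, against 10.5%), Hoxc12 and Hoxc13, which were listed at 0 in all Akt-LECs (adjusted p = 0.0375 and 0.00719). Hoxa5 was at 9.67, 3.19 and 8.31 FPKM in Akt-MACs against 39.4 to 159 FPKM, a log2 difference of -3.54 ± 0.68 (adjusted p = 0.00262). Hoxa7 was at 17.3, 43.1 and 32.8 FPKM in Akt-LECs and differed by -3.18 ± 0.49 (adjusted p = 0.000477). Hoxa6 differed by -2.93 ± 0.70 (13.1, 8.24 and 10.4 FPKM in Akt-LECs). The lower genes Hoxa4 (-2.63 ± 0.57) and Hoxa3 (-2.30 ± 0.62) completed the run, and no library of Akt-MACs reached the lowest Akt-LEC value in any of the 5. Hoxa3 was at 5, 2.97 and 5.46 FPKM against 42.8, 12.6 and 30.03 FPKM, and Hoxa4 was at 31.1, 9.76 and 21.9 FPKM in Akt-LECs. At an unadjusted p below 0.05, 10 genes were lower (27%, against 7.92%) and 3 higher (8.11%, against 15.9%). Libraries did not overlap for 14 genes that were lower (37.8%, against 14.6%) and 3 that were higher (8.11%, against 19.5%), and the study's criterion called 3 lower (Hoxa2, Hoxa6 and Hoxb3). The median of the 37 genes was 0, against 0.13 over all genes. Macrophage markers moved with this comparison too (5 of 5 higher in Akt-MACs), as did the mesenchymal Dcn, the neural Pax6 and Sox2 and Sox10 (called higher) and 7 of 7 endothelial markers (called lower), and their part in the Hox values was not tested. With Akt-MAC 2 and 3 left out, Hoxa7 alone stayed lower and 4 genes were higher (Hoxb13, Hoxc11, Hoxc12 and Hoxc13), and without Akt-MAC 1, 0 were higher and 6 lower.

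Against MACs themselves, Akt-MACs had 0 of 37 genes called higher and 0 lower by limma (against 2.59% and 0.214% of all genes). An unadjusted p below 0.05 was found for 4 lower, Hoxa4 to Hoxa7 (10.8%, against 2.19%), and 2 higher, Hoxc12 and Hoxc13 (5.41%, against 7.54%), and the study's criterion called 1 lower, Hoxa7. The 5 macrophage markers and Pax6 were called higher in Akt-MACs, and their part in the Hox values was not tested. Hoxa7 was at 11.4, 7.86 and 13.4 FPKM in MACs, above all Akt-MAC values, and differed by -1.81 ± 0.49 (adjusted p = 0.0517). Libraries did not overlap for 3 genes that were lower, Hoxa4, Hoxa5 and Hoxa7 (8.11%, against 4.19%), and for 0 that were higher (against 10.7%). Without Akt-MAC 1, Hoxa7 was called lower. Without MAC 1, Hoxa2 and Hoxa6 were called lower and Hoxc13 higher, without Akt-MAC 3, Hoxc12 was called higher, and without Akt-MAC 2 and 3 together 4 genes were higher (Hoxb13, Hoxc11, Hoxc12 and Hoxc13).

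The summed HoxB and HoxD levels of every Akt-RACVEC library lay above those of every RACVEC library, although no gene passed the test. HoxB summed to 1133, 948 and 1066 FPKM in Akt-RACVECs, against 10.2, 292 and 0 FPKM. HoxD summed to 674, 1572 and 438 FPKM against 137, 151 and 122 FPKM. HoxC was listed at 0 for all 9 genes in all 3 Akt-RACVEC libraries. Even so, limma called 0 of 37 genes higher and 0 lower (against 0.221% and 0.0401% of all genes). At an unadjusted p below 0.05 there were 14 higher (37.8%, against 4.79%), namely Hoxa4, Hoxb2 to Hoxb9, Hoxd3, Hoxd4 and Hoxd8 to Hoxd10, and 1 lower, Hoxc8 (2.7%, against 5.24%), which was at 14.4, 67.1 and 0 FPKM in RACVECs. The study's criterion called 6 higher and 1 lower, Hoxa11. The libraries were apart for 13 genes that were higher (35.1%, against 10.6%) and 2 that were lower (5.41%, against 9.15%). Hoxb8 was at 1.55, 30.9 and 0 FPKM in RACVECs and differed by 5.66 ± 1.29 (adjusted p = 0.0556). RACVEC 2 held HoxB genes that were low or at 0 in RACVEC 1 and 3, and without it 7 genes were called higher, Hoxb2 to Hoxb8. Hoxb9 was at 280.1, 31.5 and 353 FPKM in Akt-RACVECs and 0, 84.9 and 0 FPKM in RACVECs. Hoxd10, the most 5′ HoxD gene seen in all Akt-RACVECs, was at 37.3, 348 and 4.42 FPKM, against 0, 0 and 0.78 FPKM in RACVECs. Hoxa11 was at 61.1, 56.7 and 0 FPKM and Hoxa10 at 66.4, 61.2 and 26.0 FPKM in Akt-RACVECs, in each case below every RACVEC value, with differences of -3.01 ± 1.77 and -0.99 ± 1.41 (adjusted p = 0.417 and 0.822). The median of the 37 genes was 0.52, against 0 over all genes. Mesenchymal markers summed to 2443 to 4703 FPKM in RACVECs and 0.58 to 232 FPKM in Akt-RACVECs (1 of 7 called lower, Lum), endothelial markers were higher in Akt-RACVECs (3 of 7 called, Emcn, Erg and Pecam1), and their part in the Hox values was not tested.

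Hoxb2 to Hoxb9, Hoxd3, Hoxd4 and Hoxd8 to Hoxd10 were above 0 in each library of both Akt-RACVECs and Akt-LECs, whereas Hoxd11 and Hoxd13 were above 0 in 2 Akt-RACVEC libraries and at 0 in all Akt-LECs. Limma called 0 of 37 genes higher and 0 lower (against 0% and 0.00668% of all genes, so hardly any gene of any kind passed). At an unadjusted p below 0.05, 3 genes were higher (8.11%, against 1.66%), the neighbours Hoxa9, Hoxa10 and Hoxa11, and 1 was lower, Hoxa5 (2.7%, against 2.51%). Hoxa10 was at 0.93, 0 and 1.5 FPKM in Akt-LECs, a log2 difference of 4.84 ± 1.41 (adjusted p = 0.287). Hoxa9 was at 22.2, 27.5 and 11.4 FPKM in Akt-RACVECs against 1.26, 2.76 and 3.28 FPKM, a difference of 2.61 ± 0.89 (adjusted p = 0.366). Hoxa11 was at 0 in all Akt-LECs (adjusted p = 0.538), and Akt-RACVEC 3 was at 0 as well. Hoxa13, the most 5′ HoxA gene, was at 29.0, 1.95 and 1.46 FPKM in Akt-RACVECs and at 0 in Akt-LECs. Hoxa5 was at 36.4, 20.9 and 24.7 FPKM in Akt-RACVECs, below all Akt-LEC values, with a difference of -1.65 ± 0.68 (adjusted p = 0.477). The study's criterion called Hoxb6 and Hoxb7 higher and Hoxa2 lower. Libraries did not overlap for 5 genes that were higher (against 6.87% of all genes) and 3 that were lower (8.11%, against 5.08%), and the median of the 37 genes was 0.21, against 0.

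The difference between converted and unconverted cells was then compared with and without Akt. For this difference of differences limma called 0 of 37 genes higher and 0 lower (against 0.00668% and 0.0936% of all genes). An unadjusted p below 0.05 was found for 12 genes with a larger difference in the presence of Akt (32.4%, against 3.09%), Hoxa4 to Hoxa7, Hoxb4 to Hoxb8, Hoxd3, Hoxd8 and Hoxd10, and 1 with a smaller difference, Hoxc12 (2.7%, against 7.04%). The smallest adjusted p was 0.135, for Hoxa4 (3.01 ± 0.81) and Hoxa7 (2.60 ± 0.69). Thus it was not shown that the calls made with Akt differ from those without. Without Akt-MAC 1, 2 genes were called higher (Hoxa7 and Hoxb8), and with Akt-MAC 2 and 3 left out 3 were called lower (Hoxb13, Hoxc11 and Hoxc12).

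**Figure D4:**
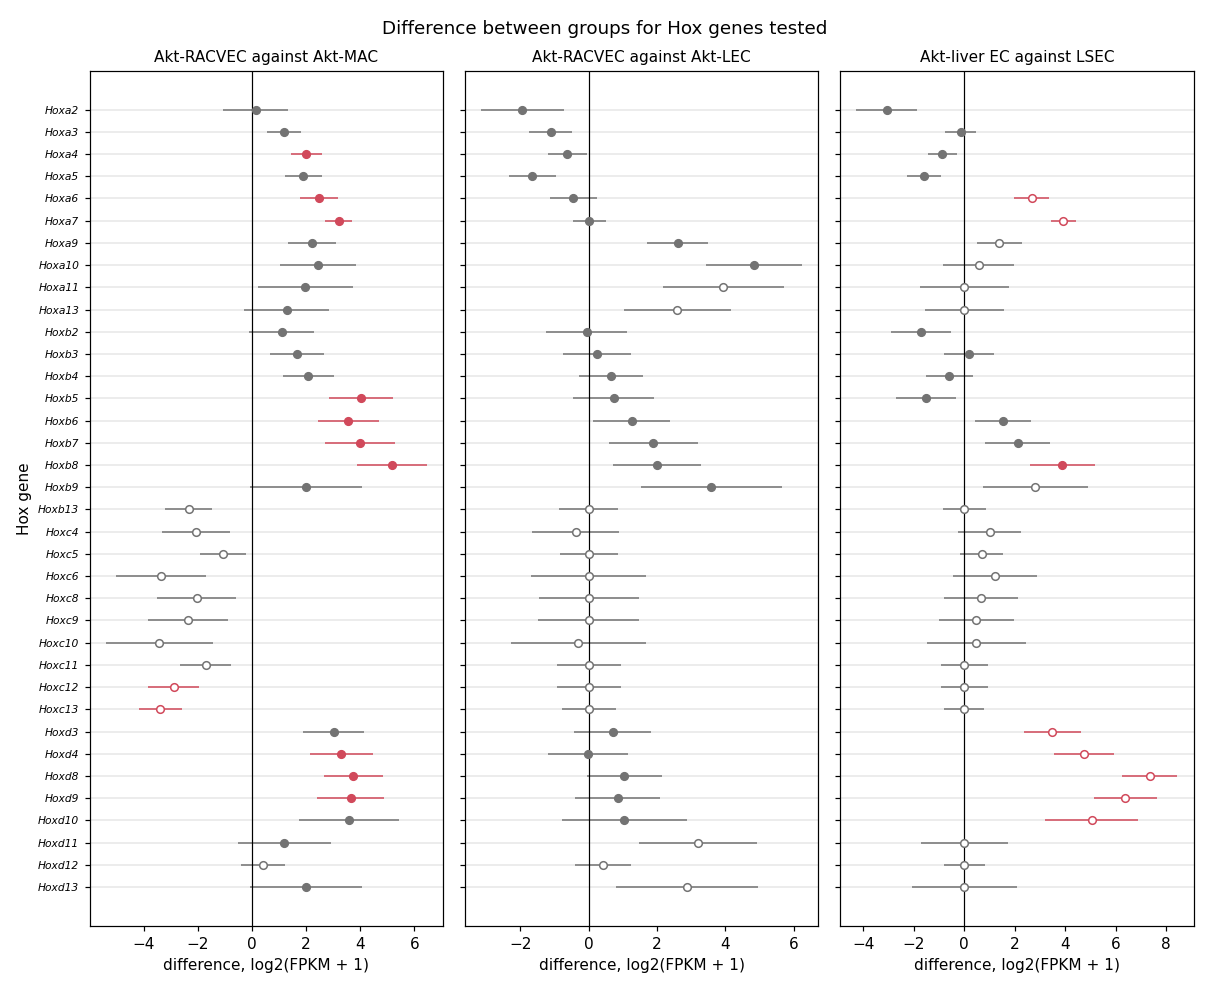
Log2(FPKM + 1) difference with SE for the tested Hox genes described here in 3 comparisons, with red for genes called by limma and open symbols for genes listed at 0 in all libraries of a group. Called genes number 12 in Akt-RACVECs against Akt-MACs, 0 in Akt-RACVECs against Akt-LECs and 8 in Akt-liver ECs against LSECs.

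Sox17-RACVECs held HoxB genes that were low or at 0 in RACVEC 1 and 3. Hoxb7 was at 159, 338 and 155 FPKM. Hoxb9 was at 98.4, 469 and 136 FPKM, and Hoxd8 at 192, 209 and 168 FPKM. The middle value of each triple belongs to the library labelled Sox17-RACVEC 2, which also differed in kind. Its HoxC genes were all at 0, against sums of 347 and 369 FPKM in Sox17-RACVEC 1 and 3, and its Hoxa11 was at 0, against 86.2 and 81.5 FPKM. Hoxa10 was at 84.4, 7.19 and 92.7 FPKM, and Hoxc10 at 157, 0 and 120 FPKM. Sox17-RACVEC 1 and 3 each had 30 Hox genes at 1 FPKM or more and this library 21, with Hoxd9, the most 5′ HoxD gene seen in all 3, at 68.6, 38.4 and 46.1 FPKM. Over the 39 genes its profile correlated with Akt-RACVEC 3 at r = 0.974 and with the other Sox17-RACVEC libraries at 0.581 and 0.604. Those correlated with each other at 0.971. RACVEC 2 in turn correlated with Sox17-RACVEC 1 and 3 at 0.972 and 0.958, but with RACVEC 1 and 3 at 0.217 and 0.279. Whether such libraries share an isolation, and its part in the differences below, was not tested. Against RACVECs, limma called 0 of 37 genes higher and 0 lower (against 0% and 0.00668% of all genes). Before adjustment 11 were higher at p below 0.05 (29.7%, against 1.32%), Hoxb2 to Hoxb9, Hoxd3, Hoxd4 and Hoxd8, and 0 lower (against 3.38%), and the study's criterion called 3 higher (Hoxb2, Hoxb4 and Hoxd8). The libraries were apart for 11 genes that were higher (29.7%, against 4.05%) and 1 that was lower, Hoxa11 (2.7%, against 6.55%). Hoxb8 was at 59.6, 269 and 71.8 FPKM in Sox17-RACVECs and differed by 4.61 ± 1.29 (adjusted p = 0.394). Without the library labelled Sox17-RACVEC 2, limma again called 0, and without RACVEC 2 it called 6 (Hoxb2, Hoxb3, Hoxb4, Hoxb6, Hoxb7 and Hoxb8). The median of the 37 genes was 0.55, against -0.02 over all genes. Mesenchymal markers summed to 2443 to 4703 FPKM in RACVECs and to 701, 5.2 and 639 FPKM in Sox17-RACVECs. Endothelial markers summed to 1270 to 2543 FPKM in RACVECs and to at least 3619 FPKM in Sox17-RACVECs. No gene of either list was called, and their part in the Hox values was not tested.

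HoxC and the far 5′ end of HoxD were listed at 0 throughout some groups. HoxC was listed at 0 in all Akt-RACVEC and LSEC libraries and in 2 of 3 libraries of both Akt-LECs and Akt-liver ECs. In these groups it was seen only in Akt-LEC 1 (a sum of 2.14 FPKM) and Akt-liver EC 1 (28.1 FPKM). These are the libraries with high mesenchymal, macrophage and epithelial markers, whose part was not tested. Hoxc4 was at 1.23 and 7.04 FPKM in these libraries and Hoxc6 at 0 and 11.48 FPKM. Hoxd11 was above 0 in MAC 1, Akt-MAC 1 (63.5 FPKM), Akt-RACVEC 1 (56.5 FPKM) and Akt-RACVEC 2 (12.2 FPKM) and at 0 in the other 20 libraries. Hoxd12 was above 0 only in MAC 1 (29.9 FPKM) and Akt-RACVEC 1 (1.36 FPKM). Hoxd13 was at 116, 2.42 and 0 FPKM in Akt-RACVECs and at 0 in all Sox17-RACVEC, lung and liver libraries. Evx2, the gene next to Hoxd13 outside the cluster, was above 0 only in MAC 1 (18.1 FPKM), RACVEC 1 (2.15 FPKM) and Akt-RACVEC 1 (6.09 FPKM), which are also the libraries where Hoxd13 exceeded 100 FPKM. Hoxa11os, antisense to Hoxa11, was at 64.3, 31.6 and 66.8 FPKM in RACVECs, 37.9, 56.9 and 0 FPKM in Akt-RACVECs and 0 in all lung and liver libraries, as Hoxa11 was.

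Hox proteins bind DNA together with the TALE cofactors of the Pbx, Meis and Pknox families. Of 9 cofactors all were tested, and 3 were called in any comparison. Over all genes, 12.9% were called lower in Akt-liver ECs against LSECs and 13.4% in Akt-RACVECs against Akt-MACs. In Akt-MACs against Akt-LECs, 10.5% of all genes were called higher. Meis1, which partners Hoxa9 in blood cells, was lower in Akt-liver ECs (21.0, 4.08 and 3.10 FPKM) than in LSECs (93.7, 72.4 and 84.0 FPKM), by -3.44 ± 1.01 (adjusted p = 0.0129). Pknox2 (-3.80 ± 0.97, adjusted p = 0.00996) and Meis3 (-3.07 ± 1.04, adjusted p = 0.0386) were lower in Akt-RACVECs than in Akt-MACs, and Meis3 was higher in Akt-MACs than in Akt-LECs (4.02 ± 1.04, adjusted p = 0.0126). The median difference over the 9 cofactors was 0.10 for Akt-RACVECs against Akt-MACs and -0.16 for Akt-liver ECs against LSECs.

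Polycomb proteins keep silent Hox clusters closed, and retinoic acid, read by the receptors Rara, Rarb and Rarg and cleared by Cyp26 enzymes, opens them from the 3′ end. Of 27 such regulators 22 were tested. In Akt-liver ECs against LSECs 3 of the 22 were higher (against 14.1% of all genes) and 5 lower (against 12.9%). The share higher was near that of all genes, and the part of these regulators in the Hox values was not tested. Cyp26b1 was at 8.88, 0.59 and 0.29 FPKM against 435 to 455 FPKM (-7.35 ± 1.11, adjusted p = 5.93e-05), and Rarb at 28.5, 5.94 and 7.20 FPKM against 193 to 254 FPKM (-4.18 ± 1.21, adjusted p = 0.0122). Rarg differed by -2.29 ± 0.49 (adjusted p = 0.00152), Cbx7 and Ezh1 were also lower, and Cbx2, Cbx6 and Ezh2 were higher. In Akt-RACVECs against Akt-MACs 4 were higher (Cbx2, Cbx6, Rara and Suz12, against 6.15% of all genes). The 3 lower were Aldh1a1, Cbx7 and Ring1 (against 13.4%, which is near their share). Cbx7, a Polycomb reader of repressed chromatin, was at 5.15, 1.74 and 0.85 FPKM against 24.4, 31.2 and 28.1 FPKM (-3.19 ± 0.49, adjusted p = 0.000327), and it was the only regulator called between Akt-RACVECs and RACVECs (-2.37 ± 0.49, adjusted p = 0.0458). Aldh1a1, which makes retinoic acid, differed by -8.45 ± 2.19 (adjusted p = 0.0108) and was at 206, 2277 and 3201 FPKM in Akt-MACs, the order of their macrophage markers. Suz12, a core subunit of the complex that writes the repressive mark, differed by 1.16 ± 0.24 (adjusted p = 0.00302). Aldh1a1, Cbx7 and Ring1 were higher in Akt-MACs than in Akt-LECs (3 of 22, against 10.5% of all genes).

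Of 13 genes that flank the clusters 10 were tested, and 4 were called between Akt-liver ECs and LSECs. Mtx2 was higher (against 14.1% of all genes), and Hibadh, Skap1 and Skap2 were lower (against 12.9%). Skap1, beside HoxB, was at 5.46, 5.77 and 6.22 FPKM in LSECs and at most 0.63 FPKM in Akt-liver ECs (-2.53 ± 0.37, adjusted p = 3.83e-05). Lnpk, beside HoxD, was lower in Akt-RACVECs than in Akt-MACs (-1.82 ± 0.47, adjusted p = 0.0102), whereas Hoxd4, Hoxd8 and Hoxd9 were higher. Hnrnpa1 was higher in that comparison (1.56 ± 0.50) and lower in Akt-MACs against Akt-LECs, where Calcoco1 was higher. Of 17 non-coding genes of the clusters 3 were tested, and 1 was called, Hoxaas3, which was listed at 0 in all Akt-MACs and at 4.72, 3.20 and 2.79 FPKM in Akt-LECs (adjusted p = 0.0411). Of 19 regional transcription factors outside the clusters 14 were tested. Over all genes, 1.35% were called lower in RACVECs against MACs and 13.4% in Akt-RACVECs against Akt-MACs. In Akt-liver ECs against LSECs, 14.1% of all genes were called higher. The limb and hindbrain gene En1 was lower in RACVECs than in MACs (1.35, 0 and 1.14 FPKM against 13.4, 3.86 and 25.3 FPKM, -2.84 ± 0.75, adjusted p = 0.0459) and in Akt-RACVECs than in Akt-MACs (-3.74 ± 0.75, adjusted p = 0.00229). Isl1 was listed at 0 in all RACVECs and at 13.6, 0 and 17.3 FPKM in MACs (adjusted p = 0.0456). Foxf1, a gene of lung and gut mesenchyme and of ECs, was at 0, 0 and 2.96 FPKM in LSECs and at 12.9, 66.4 and 174 FPKM in Akt-liver ECs (5.11 ± 0.92, adjusted p = 0.00033), and Gata6 differed the same way (4.20 ± 1.32, adjusted p = 0.0195).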

How the data were processed

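RNA was sequenced as paired 51-base reads from TruSeq libraries. The authors aligned the reads to mm9 with TopHat and deposited FPKM per RefSeq transcript from Cufflinks, with upper-quartile normalization and bias correction, and tool versions are not given in the sources used here. No counts were used, so the depth per library is unknown. Of 27583 transcripts, 649 had no gene symbol, and each of these was kept as a row of its own. The others were summed by symbol. This gave 22282 genes with those rows included, and 41 transcripts gave the 39 Hox genes. Summed FPKM per library was 1689486 to 2317294, 12356 to 14985 genes were above 0, and the median shift of a library was -0.20 to 0.13 on the log2 scale.

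The 14964 genes whose mean over 24 libraries reached 1 FPKM were tested on log2(FPKM + 1), using limma 3.58.1 (R 4.3.3) with a mean trend in a joint fit of all 8 groups of 3, two-sided and Benjamini-Hochberg adjusted over all of them. Calls needed both an adjusted p under 0.05 and a log2 difference past 1 or -1, a scale that understates changes of low genes. The script was tested on simulated data. Alternatives were the study's own criterion (FPKM compared without equal variances, p unadjusted), pseudocounts of 0.1 and 10, no filter, scaling, separate transcripts, fits of only the groups compared with and without a replicate block, and leaving out libraries. The study's criterion was applied here to FPKM summed per gene, with 1 added to group means before the ratio. It gave 214 genes higher and 221 lower in RACVECs against MACs, fewer than the study reported.

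Named were called genes (up to 4 with the largest and 4 with the smallest difference per comparison), the 3 highest of each group, the most 5′ gene of each cluster seen in all libraries of a group, and up to 3 called genes per list. The members and lists were chosen with earlier results of these data known. The study calls its replicates independently isolated cultures but the labels do not, so p-values measure the spread between these libraries. Same-numbered libraries were not treated as pairs, because in no comparison did the deviations of every pair correlate above 0.1. Some values of a member and a sequence are not reported here.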

Additional observations from a re-analysis of the deposited data

Results flagged for a closer look

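The Akt construct went with opposite shifts of Hoxa4 and Hoxa5 in converted and in amniotic cells. For Hoxa4 the log2(FPKM + 1) difference was 1.48 between Akt-RACVECs and RACVECs and -1.52 between Akt-MACs and MACs, and in each case the libraries did not overlap. For Hoxa5 the differences were 0.69 and -2.0 (Akt-RACVECs 20.9 to 36.4 FPKM against RACVECs 14.3 to 17.4 FPKM, and Akt-MACs 3.19 to 9.67 FPKM against MACs 10.7 to 153 FPKM). These are the only Hox genes whose libraries did not overlap in either comparison and differed in opposite directions. They were found by scanning all members. Over all genes, 10.6% were higher without overlap in Akt-RACVECs against RACVECs, and 4.19% lower in Akt-MACs against MACs. The share of all genes with both was not computed. The limma test of the difference between the 2 effects did not pass (adjusted p = 0.135 for Hoxa4 and 0.254 for Hoxa5). Macrophage markers were high in the Akt-MAC libraries, as given above, and their part in these values was not tested.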

How the results depend on the processing

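Over 408 repeats of 27 called gene and comparison pairs, 279 kept the call, 129 lost it with the same direction and 0 reversed. The number of Hox genes called was 12 for Akt-RACVECs against Akt-MACs, 7 for Akt-MACs against Akt-LECs, 8 for Akt-liver ECs against LSECs and 0 in the other 7 comparisons. Leaving out 1 library gave 4 to 10, 5 to 8 and 5 to 9 in these 3, 0 to 3 for Akt-MACs against MACs, 0 to 7 for Akt-RACVECs against RACVECs, 0 to 6 for Sox17-RACVECs against RACVECs, 0 to 2 for conversion with against without Akt, and 0 in the others. A lone library was assumed to vary like the other groups. The alternatives that left out Akt-MAC 2 and 3 (5 for Akt-RACVECs against Akt-MACs, 4 for Akt-MACs against MACs, 3 for conversion with against without Akt) were chosen after seeing the data. The study's criterion gave 3 for Akt-MACs against Akt-LECs, 3 for Akt-RACVECs against Akt-LECs, 1 for Akt-LECs against Akt-liver ECs, 5 for Akt-liver ECs against LSECs, 1 for Akt-MACs against MACs, 7 for Akt-RACVECs against RACVECs and 3 for Sox17-RACVECs against RACVECs. Fitting only the groups compared gave 4 for Akt-MACs against Akt-LECs and 15 for Akt-liver ECs against LSECs. Scaling by the median gave 1 for Akt-MACs against MACs, and for Akt-RACVECs against RACVECs a pseudocount of 10 gave 2 and separate transcripts gave 1. The cause of these changes was not tested. A replicate block gave 0 for Akt-RACVECs against Akt-MACs, 1 for Akt-MACs against Akt-LECs and 15 for Akt-liver ECs against LSECs. Whether the numbers mark pairs is not known, and 3 pairs per comparison cannot settle it. Deviations of same-numbered libraries correlated at 0.571, 0.366 and -0.05 for Akt-LECs against Akt-liver ECs, the comparison with the highest mean. At most 5 libraries of a comparison correlated best with their own number (Akt-MACs against Akt-LECs). Depth is unknown, so a value of 0 may be a failed estimate.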
